A study of Homo sapiens with 20 samples.

Results

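The genes described here are 9 genes of plasma cell differentiation, IRF4, PRDM1, XBP1, MZB1, JCHAIN, SDC1, TNFRSF17, SLAMF7 and CD38. They were taken by gene symbol from 58288 genes counted in each library, each symbol was on 1 gene only, and 9 of 9 were abundant enough to be tested. RNA with poly(A) tails had been sequenced from 20 libraries of the cell lines DOHH2 and U2932, both labelled as diffuse large B-cell lymphoma (DLBCL), a tumour of mature B cells. The labels call the agent TK, a compound they do not describe further, and DMSO is the solvent given to its controls. DOHH2 was sampled after 18 h of TK (3 libraries), 18 h of DMSO (2), 8 h of TK (3) and 8 h of DMSO (3), and U2932 after 18 h of TK (3), 18 h of DMSO (1), 8 h of TK (2) and 8 h of DMSO (3). Each line stands for itself alone. In most classifications DOHH2 counts as germinal centre type and U2932, which is known to hold subclones, as activated type. The labels do not say that libraries of a group came from separate cultures, so p-values measure the spread between these libraries, which may be technical.

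A B cell becomes a plasma cell by closing its B cell programme and opening one for antibody secretion. IRF4 at high levels starts the switch, PRDM1 (BLIMP-1) represses B cell genes such as BCL6, MYC, PAX5 and CIITA, and BCL6 and PAX5 in turn repress PRDM1. XBP1, whose mRNA is spliced by the stress sensor ERN1 when unfolded protein builds up in the endoplasmic reticulum, expands the secretory machinery. In the activated type of DLBCL, IRF4 is typically high while PRDM1 is often inactivated.

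The promoters of the members the results turn on are shown first, from RefSeq sequences on GRCh38.p14. Of the 9 members, 7 had promoter entries, 10 in all, and windows of 250 bases up to the start that RefSeq gives were searched on both strands for 6 motifs. SDC1 and PRDM1, the members that differed most between the lines, are shown with the bases upstream of the start, chr2:20225476-20225725 on the minus strand and chr6:106086086-106086319 on the plus strand. The stretches of XBP1 (chr22:28800597-28800626, minus strand) and CD38 (chr4:15778275-15778304, plus strand) are the ones of this set that held an endoplasmic reticulum stress element (CCAAT, any 9 bases, CCACG) and an ETS-IRF composite element (GGAA, any 2 bases, GAAA), printed in capitals.
SDC1: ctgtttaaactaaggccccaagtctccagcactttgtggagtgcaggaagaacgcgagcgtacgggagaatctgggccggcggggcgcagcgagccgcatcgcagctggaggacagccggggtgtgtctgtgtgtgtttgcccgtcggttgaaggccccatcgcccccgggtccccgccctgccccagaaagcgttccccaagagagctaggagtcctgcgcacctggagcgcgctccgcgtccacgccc
PRDM1: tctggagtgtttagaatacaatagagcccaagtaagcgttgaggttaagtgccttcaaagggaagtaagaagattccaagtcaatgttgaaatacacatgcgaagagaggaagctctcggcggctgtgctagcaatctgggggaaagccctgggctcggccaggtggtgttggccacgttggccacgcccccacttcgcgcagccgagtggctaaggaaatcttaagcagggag
XBP1: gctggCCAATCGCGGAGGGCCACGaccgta
CD38: gttgggggtgGGAAGGGAAAcagagaaaag
The RefSeq start can lie apart from the start of the gene in GENCODE v29, which the gene coordinates further on use. The stress element, to which ATF6 and NF-Y are known to bind, began 52 bases before the RefSeq start of XBP1 and 24 bases before its GENCODE start, and 0.074% of 35116 promoters held it. The composite element, which takes IRF4 or IRF8 together with PU.1 or SPIB, began 43 bases before the RefSeq start of CD38, which is 10 bases after its GENCODE start and so inside the gene by that annotation. It was in 2.41% of promoters. The TATA box (TATAAA, 10.7% of promoters) was in the IRF4 window, 32 bases before the RefSeq start and 19 bases before the GENCODE start. The interferon-stimulated response element (GAAA, any 2 bases, GAAA; 3.02% of promoters), the core of the unfolded protein response element (TGACGTG, 1.68%) and the octamer (ATGCAAAT, 1.63%) were in 0 of the 10 windows. The windows of SDC1 and PRDM1 printed here held none of the 6 motifs, and their GC content was 66.4% and 53%. A match is a match of letters only.

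The libraries held 30363255 to 52275430 counts in genes, and a member had from 53 counts (SDC1 in a U2932 library) to 135355 counts (JCHAIN in a DOHH2 library). DOHH2 TK 18 h replicate 1 stood apart with 56.6% of its counts not uniquely aligned, against 20.7 to 34.3% elsewhere, and DOHH2 TK 8 h replicate 1 had 3.29% mitochondrial counts, against 5.06 to 8.08%. Of the markers of B cells, CD79A was at 330.4 to 658 CPM (counts scaled to library size) in DOHH2, against 362 to 583 CPM in U2932, CD79B at 93.1 to 209 CPM in DOHH2, against 419 to 621 CPM in U2932, and PAX5 at 141 to 259 CPM in DOHH2, against 191 to 346 CPM in U2932. The 4 T cell markers summed to 0.300 to 0.599 CPM in DOHH2, against 0.740 to 1.70 CPM in U2932, and the 4 myeloid markers to 0.0326 to 0.923 CPM in DOHH2, against 0.827 to 1.99 CPM in U2932. CD3D and FCGR3A were at 0 in most libraries. Of 3 stromal and epithelial markers, COL1A1 was at 4.96 to 29.2 CPM in DOHH2 and EPCAM at 21.0 to 32.2 CPM in U2932.

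In the libraries labelled DOHH2, BCL6, the repressor of the germinal centre, was at 0 to 0.358 CPM, against 329.7 to 409 CPM in U2932, and IRF4 was higher. Both go against the types usually given to these lines. An exchange of the line labels was not tested. It would turn the sign of every difference between the lines given here and exchange the names beside each change within a line.

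Set against U2932, DOHH2 carried more mRNA of most plasma cell genes. In DMSO at 8 h, 8 of the 9 members differed at an adjusted p under 0.05, 7 higher and 1 lower in DOHH2, where 67.8% of all genes tested differed (33.0% higher, 34.9% lower). SDC1, the plasma cell surface marker CD138, was 286-fold higher, PRDM1 11.2-fold and MZB1 8.82-fold, whereas TNFRSF17, the survival receptor BCMA, was 3.57-fold lower. The median log2 difference of the members was 2.62, and that of all genes was -0.03. In size without sign, the medians were 2.62 for the members and 0.82 for all genes. In bulk RNA, fewer cells that express a gene and less of its RNA per cell cannot be told apart.

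The count was 8 in DMSO at 18 h (7 higher, 1 lower), where 52.3% of all genes were called (25.4% higher, 26.9% lower). With TK it was 9 at 8 h (8 higher, 1 lower), where 62.8% of all genes were called (30.7% higher, 32.1% lower), and 9 at 18 h (8 higher, 1 lower), where 69.2% were called (34.2% higher, 34.9% lower). Over all conditions, the 11 DOHH2 libraries lay above the 9 U2932 libraries for 7 members and below them for TNFRSF17, and the lines overlapped for XBP1. Of all genes tested, 46.8% separated the lines in this way, 22.7% with DOHH2 higher and 24.1% with DOHH2 lower. Ranked by the size of the difference in DMSO at 8 h among the 16478 genes tested, SDC1 was at 451, PRDM1 at 2312, MZB1 at 2589, JCHAIN at 2994, SLAMF7 at 3121, TNFRSF17 at 4310, IRF4 at 6559, CD38 at 7469 and XBP1 at 14496.

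**Figure D1:**
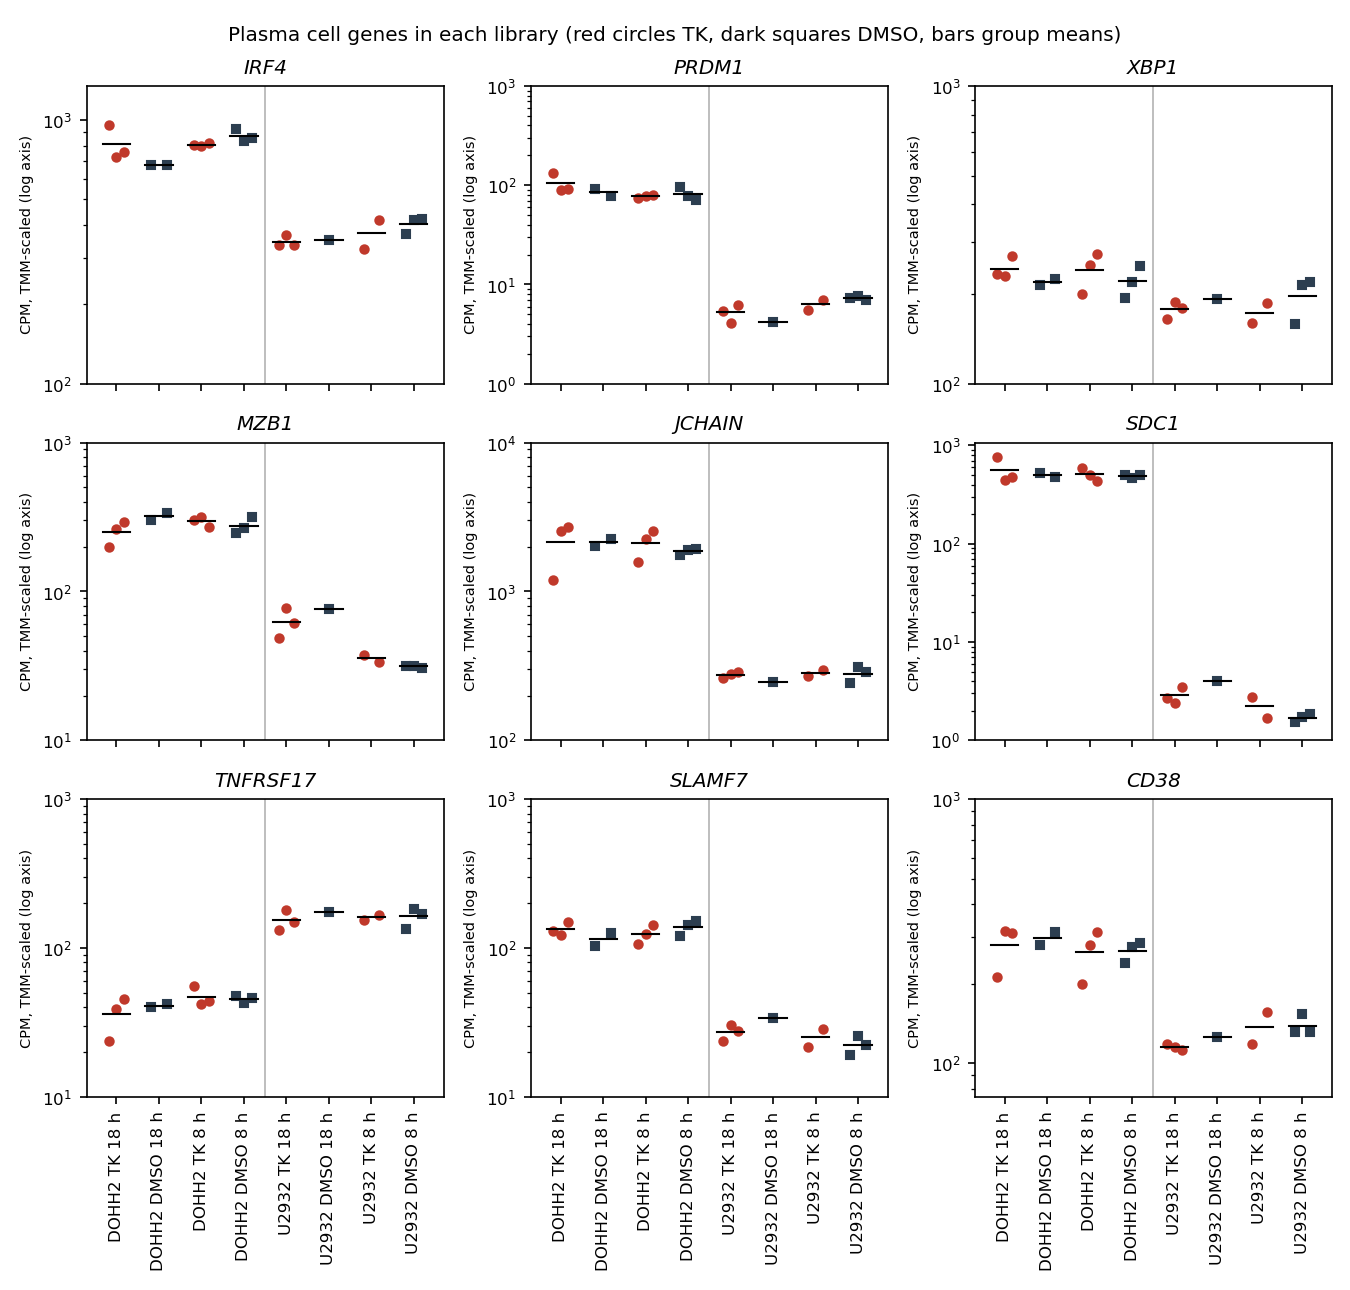
Level of each member in each library (CPM scaled by TMM factors, log axis), by line, agent and time. Red circles are TK libraries, dark squares are DMSO libraries and bars are group means. The DOHH2 libraries lie above all U2932 libraries for 7 members and below them for TNFRSF17, and XBP1 overlaps.

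Among the transcription factors, IRF4 (ENSG00000137265.14, chr6:391739-411447, plus strand, GRCh38 with GENCODE v29 for all genes here) had 922, 834 and 857 CPM in DOHH2 in DMSO at 8 h, against 368, 418 and 420 CPM in U2932. The log2 difference was 1.11 (SE 0.12, adjusted p 6.19e-08). Over all conditions IRF4 ranged from 674 to 962 CPM (median 805) in DOHH2 and from 326 to 420 CPM (median 366) in U2932. The line usually classed with the activated type thus had the lower IRF4 level in these libraries.

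PRDM1 (ENSG00000057657.15, chr6:106086320-106109939, plus strand) was present at a low level in U2932. It had 95.1, 77.7 and 70.5 CPM in DOHH2 in DMSO at 8 h, against 7.23, 7.58 and 6.96 CPM in U2932. The log2 difference was 3.48 (SE 0.18, adjusted p 5.11e-13), and it was 4.35 in DMSO at 18 h, 3.63 with TK at 8 h and 4.31 with TK at 18 h. In U2932 its counts were 145 to 296 per library, so it was measured there well above 0. PRDM1 overlaps ATG5 on the opposite strand and AL022067.1 on its own, with 0 exon bases shared.

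XBP1 (ENSG00000100219.16, chr22:28794555-28800597, minus strand) was the member with the least difference between the lines. It had 193, 220 and 250 CPM in DOHH2 in DMSO at 8 h, against 158, 215 and 220 CPM in U2932, and the groups overlapped (log2 difference 0.16, 95% interval -0.13 to 0.45, adjusted p 0.322). In DMSO at 18 h the difference was 0.19 (adjusted p 0.465). With TK, XBP1 was higher in DOHH2 by 0.48 at 8 h (SE 0.16, adjusted p 0.0129) and by 0.46 at 18 h (SE 0.14, adjusted p 0.00706). The call at 8 h was lost without U2932 TK 8 h replicate 1 (0.37, adjusted p 0.132), without DOHH2 TK 8 h replicate 3 (0.38, adjusted p 0.0531) and in a fit of the 2 groups alone (0.39, adjusted p 0.0916). Counts per gene do not separate spliced from unspliced XBP1 mRNA.

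Of the genes of antibody assembly, MZB1 (ENSG00000170476.15, chr5:139387480-139390081, minus strand) encodes a chaperone partner of the endoplasmic reticulum that aids folding of immunoglobulin. It had 246, 266 and 317 CPM in DOHH2 in DMSO at 8 h, against 31.7, 31.6 and 30.8 CPM in U2932 (log2 difference 3.14, SE 0.17, adjusted p 7.62e-13). The difference was 3.06 with TK at 8 h, and at 18 h it was 2.07 in DMSO and 2.01 with TK. MZB1 thus separated the lines less at 18 h than at 8 h, and the change over time in U2932 is described further on.

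JCHAIN (ENSG00000132465.10, chr4:70655541-70681817, minus strand), the chain that joins IgM and IgA into polymers, was the most abundant member in DOHH2. It had 1755, 1911 and 1915 CPM in DOHH2 in DMSO at 8 h, against 242, 312 and 289 CPM in U2932 (log2 difference 2.73, SE 0.23, adjusted p 1.08e-09). Its DOHH2 levels spread over 2.26-fold, from 1199 CPM in TK 18 h replicate 1 to 2714 CPM in TK 18 h replicate 3, and its U2932 levels over 1.29-fold. JCHAIN shares 87 exon bases with ENAM on the opposite strand, and reads of the 2 genes cannot be told apart there, since the strand setting of the counting is not given.

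Of the surface proteins, SDC1 (ENSG00000115884.10, chr2:20200797-20225433, minus strand), a heparan sulfate proteoglycan, had 499, 466 and 495 CPM in DOHH2 in DMSO at 8 h, against 1.52, 1.72 and 1.86 CPM in U2932. These U2932 values rest on 53, 58 and 68 counts. The log2 difference was 8.16 (SE 0.25, adjusted p 3.25e-16), and 6.97, 7.87 and 7.60 in DMSO at 18 h, TK at 8 h and TK at 18 h.

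TNFRSF17 (ENSG00000048462.10, chr16:11965107-11968068, plus strand) binds BAFF and APRIL and keeps long-lived plasma cells alive. It ran against the other members, with 47.5, 43.0 and 46.4 CPM in DOHH2 in DMSO at 8 h, against 135, 184 and 170 CPM in U2932 (log2 difference -1.84, SE 0.19, adjusted p 2.33e-08). The difference was -2.09 in DMSO at 18 h, -1.77 with TK at 8 h and -2.09 with TK at 18 h. TNFRSF17 overlaps NPIPB2 on the opposite strand with 0 exon bases shared.

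SLAMF7 (ENSG00000026751.16, chr1:160739057-160754821, plus strand), a receptor of the SLAM family used as a therapeutic target in myeloma, had 121, 142 and 151 CPM in DOHH2 in DMSO at 8 h, against 19.1, 25.8 and 22.3 CPM in U2932 (log2 difference 2.62, SE 0.16, adjusted p 7.47e-12). CD38 (ENSG00000004468.12, chr4:15778275-15853230, plus strand), an ecto-enzyme that consumes NAD and is also found on germinal centre B cells, had 239, 276 and 286 CPM in DOHH2, against 132, 154 and 131 CPM in U2932 (log2 difference 0.94, SE 0.17, adjusted p 3.89e-05). Over all conditions, the DOHH2 libraries lay above the U2932 libraries for both genes, as they did for 22.7% of all genes.

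**Figure D2:**
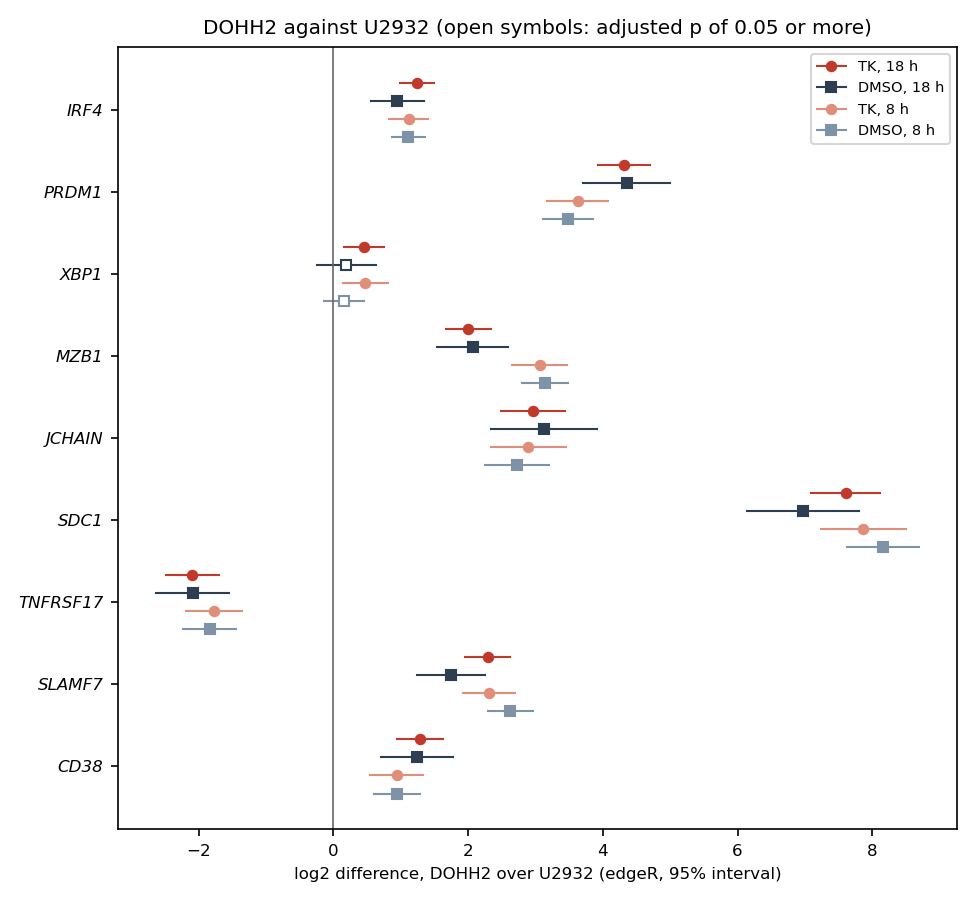
Log2 difference of each member, DOHH2 over U2932, in the 4 conditions of agent and time, from the edgeR fit, with 95% intervals. Open symbols have an adjusted p of 0.05 or more. XBP1 in DMSO holds the open symbols, and TNFRSF17 is the member below 0.

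Per kilobase of exon, the lines ordered the members differently in DMSO at 8 h. In DOHH2, mean levels were 1107 CPM per kb for JCHAIN, 148 for IRF4, 135 for SDC1, 122 for MZB1, 72.9 for XBP1, 40.8 for TNFRSF17, 39.0 for CD38, 28.6 for SLAMF7 and 12.7 for PRDM1. The ranges overlapped between SDC1 and MZB1 and between TNFRSF17 and CD38, and no other neighbours in that order overlapped. In U2932 the order was JCHAIN (167 CPM per kb), TNFRSF17 (146), IRF4 (68.2), XBP1 (65.3), CD38 (20.3), MZB1 (13.8), SLAMF7 (4.63), PRDM1 (1.14) and SDC1 (0.472), with overlap between JCHAIN and TNFRSF17 and between IRF4 and XBP1. SDC1 thus stood near the top in DOHH2 and last in U2932. In both lines PRDM1 was among the lowest members.

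TK was set against DMSO in each line and at each time, which is the comparison the study's title names. In DOHH2, 0 of the 9 members passed the threshold of edgeR's test after 8 h (0.0% of all genes) and 0 after 18 h (0.0728% of all genes). In U2932 it was 0 of 9 after 8 h (0.0%) and 0 after 18 h (0.0182%). DESeq2 also called 0 members in all 4 comparisons, while of all genes it called 0.0% after 8 h in either line, 0.73% after 18 h in DOHH2 and 0.5% after 18 h in U2932. At an unadjusted p under 0.05 stood 1 member, MZB1 in DOHH2 at 18 h, with 0 in the other comparisons. The groups hold 1 to 3 libraries, and the 95% intervals of the 9 log2 changes reached from -0.45 to 0.63 after 8 h and -0.71 to 0.67 after 18 h in DOHH2. For U2932 they reached from -0.61 to 0.93 after 8 h and -1.06 to 0.86 after 18 h.

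IRF4 at 18 h in DOHH2 had 962, 725 and 757 CPM with TK, against 678 and 674 CPM with DMSO. The TK libraries lay above the DMSO libraries, by a log2 change of 0.27 (SE 0.13, p 0.0585, adjusted p 0.594). At 8 h IRF4 had 805, 795 and 816 CPM with TK, against 922, 834 and 857 CPM with DMSO, and the TK libraries lay below the DMSO libraries (-0.11, adjusted p 1). The TK change at 18 h minus that at 8 h was 0.38 for IRF4 (p 0.0454, adjusted p 1).

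MZB1 at 18 h in DOHH2 had 199, 262 and 292 CPM with TK, against 304 and 337 CPM with DMSO. All TK libraries lay below the DMSO libraries, and the log2 change was -0.36 (SE 0.17, p 0.0475, adjusted p 0.574). XBP1 lay higher in all TK libraries of 18 h (0.15, adjusted p 0.8865). The share of all genes that split between TK and DMSO in DOHH2 was not computed. The splits of IRF4, MZB1 and XBP1 are thus no result about the members. PRDM1 had 132, 89.7 and 92.1 CPM with TK at 18 h in DOHH2, against 92.6 and 77.8 CPM with DMSO, and the groups overlapped (0.30, SE 0.18, adjusted p 0.698). SDC1 had 763, 444 and 482 CPM with TK, against 524 and 478 CPM with DMSO, and also overlapped (0.17, adjusted p 0.906).

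The library that stood apart in its alignments, TK 18 h replicate 1, was the highest of the 11 DOHH2 libraries for IRF4, PRDM1 and SDC1 and the lowest for MZB1, JCHAIN and TNFRSF17. JCHAIN had 1199 CPM there, against 2537 and 2714 CPM in the other TK libraries of 18 h, and TNFRSF17 had 23.7 CPM, against 39.2 and 45.8 CPM. Without TK 18 h replicate 1 of DOHH2, the log2 change of SDC1 with TK at 18 h was -0.11 in place of 0.17, and that of TNFRSF17 was 0.05 in place of -0.18. The part of the alignments in these levels was not tested.

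In U2932 at 18 h a single DMSO library was the control, so its spread was taken from the other groups. SDC1 had 2.71, 2.40 and 3.50 CPM with TK, against 3.98 CPM with DMSO (log2 change -0.46, SE 0.29, adjusted p 0.775). SLAMF7 had 23.9, 30.4 and 27.8 CPM with TK, against 34.1 CPM with DMSO (-0.32, adjusted p 0.783). PRDM1 had 5.43, 4.13 and 6.16 CPM with TK, against 4.17 CPM with DMSO (0.33, adjusted p 0.825), and here the DMSO value lay within the range of TK. XBP1, SDC1, SLAMF7 and CD38 lay lower and JCHAIN higher in all 3 TK libraries than in the 1 DMSO library, and none of these differences passed the test. The share of all genes that split in this way was not computed, so this is no result about the members.

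For MZB1 in U2932 the value depended on the control chosen. It had 48.9, 77.0 and 61.3 CPM with TK at 18 h, against 76.5 CPM with DMSO at 18 h (log2 change -0.29, adjusted p 0.806). With the DMSO libraries of 8 h added to the controls, the value turned to 0.67 (adjusted p 0.00832), as MZB1 had 31.7, 31.6 and 30.8 CPM in them. The same setting changed the call of 0 other members.

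The TK change in DOHH2 was then set against that in U2932, and 0 of 9 members differed at 8 h and 0 at 18 h (0.0% and 0.0243% of all genes). Setting the TK change at 18 h against that at 8 h likewise gave 0 of 9 members in DOHH2 and 0 in U2932 (0.0121% and 0.00607% of all genes). At an unadjusted p under 0.05 stood IRF4 in DOHH2, given above, and SDC1 in U2932, with a difference of -0.83 (SE 0.39, p 0.0483, adjusted p 1). DESeq2 called 0 members in each of these 4 comparisons. Of all genes it called 0.0% at 8 h and 0.14% at 18 h for DOHH2 minus U2932, and 0.0425% in DOHH2 and 0.00607% in U2932 for 18 h minus 8 h.

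**Figure D3:**
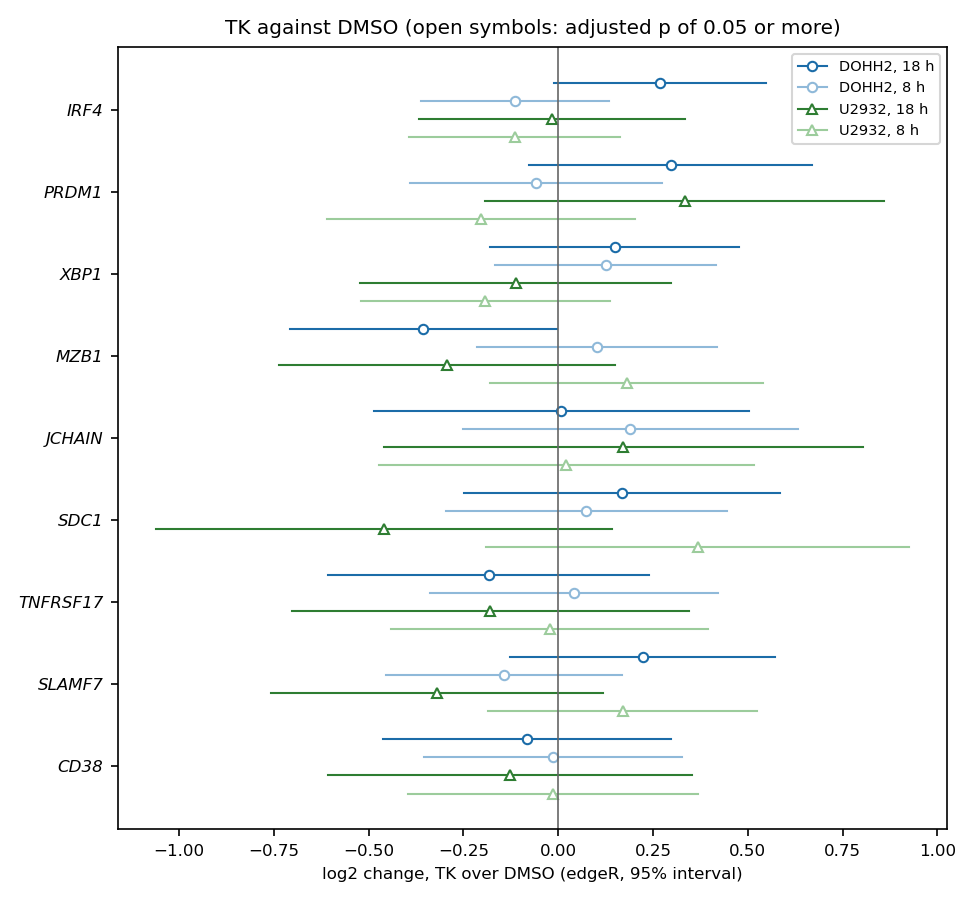
Log2 change of each member, TK over DMSO, in each line at each time, from the edgeR fit, with 95% intervals. All symbols are open, since no adjusted p was under 0.05. The widest intervals are those of JCHAIN and SDC1 in U2932 at 18 h, where 1 DMSO library was the control.

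Time was compared within each line and agent, 18 h against 8 h. MZB1 was higher at 18 h in U2932, and the other members gave no call in these single comparisons. In U2932 in DMSO it had 76.5 CPM at 18 h, against 31.7, 31.6 and 30.8 CPM at 8 h (2.44-fold, log2 change 1.29, SE 0.20, adjusted p 0.0198). This was 1 member called of 9, where 0.0364% of all genes were called (0.0303% higher). Without any 1 of the 3 DMSO libraries of 8 h, the adjusted p of MZB1 was 0.0523 to 0.0900.

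With TK, MZB1 in U2932 had 48.9, 77.0 and 61.3 CPM at 18 h, against 37.7 and 33.4 CPM at 8 h (log2 change 0.81, SE 0.18, adjusted p 0.0550), and 0 of 9 members were called (0.218% of all genes). The call was gained without U2932 TK 18 h replicate 1 (0.96, adjusted p 0.0495). All 4 U2932 libraries of 18 h lay above all 5 of 8 h for MZB1, the only member of the 9 that separated the times, as 17.5% of all genes did (9.5% with 18 h higher, 8.01% with it lower). In DOHH2, 0 of 9 members separated the times, against 4.19% of all genes (2.13% higher, 2.06% lower).

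The other members that moved furthest in U2932 in DMSO did not pass the threshold. SDC1 had 3.98 CPM at 18 h, against 1.52, 1.72 and 1.86 CPM at 8 h (log2 change 1.23, SE 0.29, p 0.000481, adjusted p 0.137), from 208 counts against 53 to 68. It was called without a filter (adjusted p 7.06e-06), with DESeq2 (0.0175) and with voom weights (0.0124). PRDM1 had 4.17 CPM at 18 h, against 7.23, 7.58 and 6.96 CPM at 8 h (-0.80, SE 0.26, adjusted p 0.285), and was called with voom weights (adjusted p 0.0398). SLAMF7 had 34.1 CPM at 18 h, against 19.1, 25.8 and 22.3 CPM at 8 h (0.61, SE 0.21, adjusted p 0.307). All 3 rest on the 1 DMSO library of 18 h.

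The mean of the TK and DMSO time changes, a test added after the values had been seen, uses all 9 libraries of U2932. MZB1 was 2.07-fold higher at 18 h (log2 change 1.05, SE 0.14, adjusted p 0.000975) and SDC1 1.76-fold (0.81, SE 0.20, adjusted p 0.0272). These were 2 of 9 members, against 5.3% of all genes (2.87% higher). PRDM1 was at -0.53 (SE 0.16, adjusted p 0.0544), and it was called with DESeq2 (-0.52, adjusted p 0.0231), with voom weights (adjusted p 0.0295), without a filter (0.0311), with a filter at 50 counts (0.0499), in a fit of U2932 alone (0.0299) and without U2932 TK 8 h replicate 1 (0.0346). SLAMF7 was at 0.36 (SE 0.14, adjusted p 0.105). Each U2932 library except the single DMSO library of 18 h was left out in turn. This kept the MZB1 value between 0.96 and 1.13 with a highest adjusted p of 0.0168. The DMSO change within this mean rests on that single library at 18 h, which was never left out. The SDC1 call was lost without TK 18 h replicate 3, TK 18 h replicate 2, TK 8 h replicate 2, DMSO 8 h replicate 2 or DMSO 8 h replicate 1 of U2932, with adjusted p from 0.05 to 0.197.

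**Figure D4:**
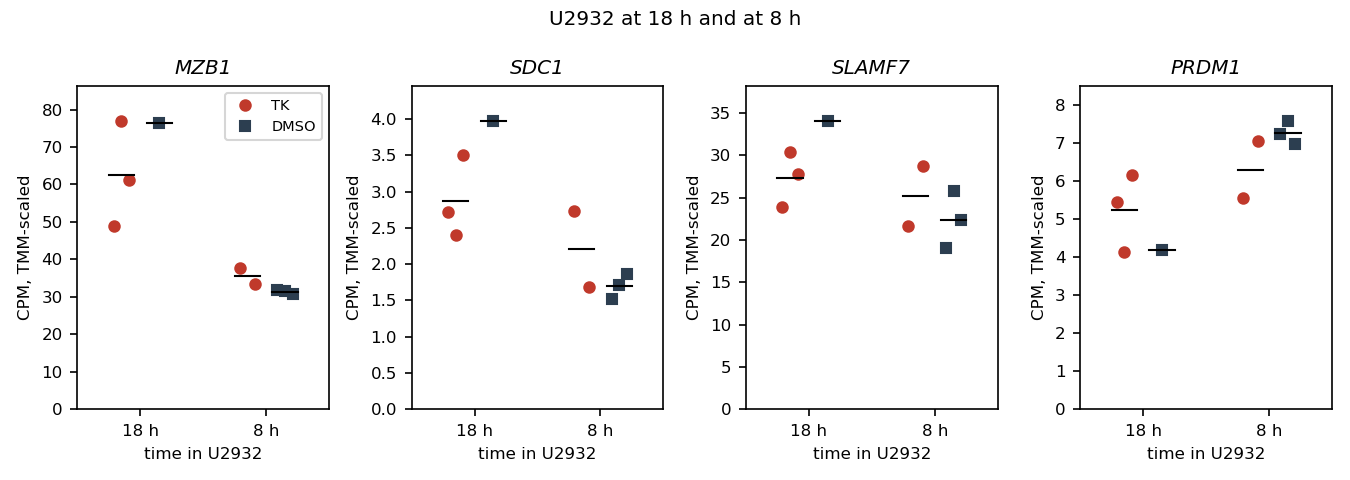
CPM (TMM-scaled) of MZB1, SDC1, SLAMF7 and PRDM1 in each U2932 library at 18 h and at 8 h. Red circles are TK, dark squares are DMSO and bars are group means. The 4 libraries of 18 h lie above the 5 of 8 h for MZB1, and the times overlap for the other 3 genes.

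In DOHH2, 0 of 9 members were called for time in DMSO (0.631% of all genes), 0 with TK (1.57%) and 0 for the mean of both (5.96%). IRF4 in DMSO had 678 and 674 CPM at 18 h, against 922, 834 and 857 CPM at 8 h (log2 change -0.36, SE 0.13, p 0.0132, adjusted p 0.303). With TK it had 962, 725 and 757 CPM at 18 h, against 805, 795 and 816 CPM at 8 h, and the times overlapped (0.02, adjusted p 0.971). PRDM1 with TK had 132, 89.7 and 92.1 CPM at 18 h, against 75.0, 78.6 and 79.8 CPM at 8 h, with all libraries of 18 h higher (0.43, SE 0.16, p 0.0144, adjusted p 0.161). The share of all genes that split in this way with TK was not computed. MZB1 in DOHH2 had a mean time change of -0.01 (SE 0.11, 95% interval -0.25 to 0.22).

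The time change in DOHH2 minus that in U2932 was also tested after the values had been seen. It was called for MZB1 (-1.07, SE 0.18, adjusted p 0.00339) and PRDM1 (0.78, SE 0.20, adjusted p 0.0214), 2 of 9 members, against 11.9% of all genes (5.81% higher, 6.13% lower). SDC1 was at -0.72 (SE 0.24, adjusted p 0.052), and it was called without a filter (-0.77, adjusted p 0.0011), with the replicate block (-0.87, 0.0223), with DESeq2 (-0.74, 0.0238) and with voom weights (-0.91, 0.00288). It was also called without U2932 TK 8 h replicate 1, DOHH2 TK 18 h replicate 1 or DOHH2 TK 8 h replicate 3 (adjusted p 0.00722 to 0.0274). The PRDM1 call was lost without U2932 TK 8 h replicate 2 (0.69, adjusted p 0.0829) and without DOHH2 DMSO 18 h replicate 1 (0.71, adjusted p 0.0569). Without replicate 1 of DOHH2 TK at both times the count was 4, with SDC1 and SLAMF7 added.

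The genes around the members in the pathway were read as 3 lists. In DMSO at 8 h, where 67.8% of all genes differed between the lines (33.0% higher, 34.9% lower) with a median log2 difference of -0.03, so did 14 of 14 genes of the mature B cell programme, 5 higher and 9 lower in DOHH2, with a median of -1.09. BCL6, the germinal centre repressor that PRDM1 opposes, had 0.106 ± 0.115 CPM in DOHH2, against 400.2 ± 13.8 CPM in U2932 (SD, n = 3 each). MS4A1, the surface antigen CD20, had 93.3 ± 22.3 CPM in DOHH2, against 1279 ± 205 CPM in U2932. SPIB, an ETS factor of B cells, had 32.7 ± 7.21 CPM in DOHH2, against 337 ± 87.7 CPM in U2932. MYC, another known target of PRDM1, had 453 ± 79.7 CPM in DOHH2, against 19.4 ± 5.06 CPM in U2932 and was thus higher beside the higher PRDM1.

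Of the 21 genes of the secretory pathway and unfolded protein response, 19 differed in this comparison, 15 higher and 4 lower in DOHH2, with a median of 0.69, against 67.8% of all genes (33.0% higher). PDIA4, a disulfide isomerase of the endoplasmic reticulum, had 596 ± 43.0 CPM in DOHH2, against 147 ± 16.2 CPM in U2932, and TXNDC5, of the same family, had 54.7 ± 10.6 CPM in DOHH2, against 9.39 ± 0.327 CPM in U2932. PRDX4, a peroxiredoxin of the endoplasmic reticulum, had 142 ± 8.44 CPM in DOHH2, against 38.3 ± 2.71 CPM in U2932. SEC11C, a catalytic subunit of the signal peptidase, was lower, with 131 ± 8.49 CPM in DOHH2, against 1794 ± 159 CPM in U2932 (SD, n = 3 each). ERN1, which splices XBP1 mRNA, was higher in DOHH2 by 1.86 on the log2 scale and was called.

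Of 12 other plasma cell genes, 11 could be tested and 7 differed, 6 higher and 1 lower in DOHH2, with a median of 0.50. A share of 7 in 11 is near the 67.8% of all genes and is no result about this list. GPRC5D, a myeloma surface antigen, had no counts in any library. ITGA4, an integrin of bone marrow homing, had 204 ± 31.5 CPM in DOHH2, against 13.8 ± 5.51 CPM in U2932. ELL2, an elongation factor that favours secreted immunoglobulin, had 63.3 ± 9.07 CPM in DOHH2, against 13.0 ± 0.589 CPM in U2932 (SD, n = 3 each). TNFRSF13B (TACI), a receptor of BAFF and APRIL, was higher in DOHH2 by 1.24, unlike its relative TNFRSF17. POU2AF1, a coactivator of B cell octamer factors, was the gene of this list that was lower (-0.89).

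**Figure D5:**
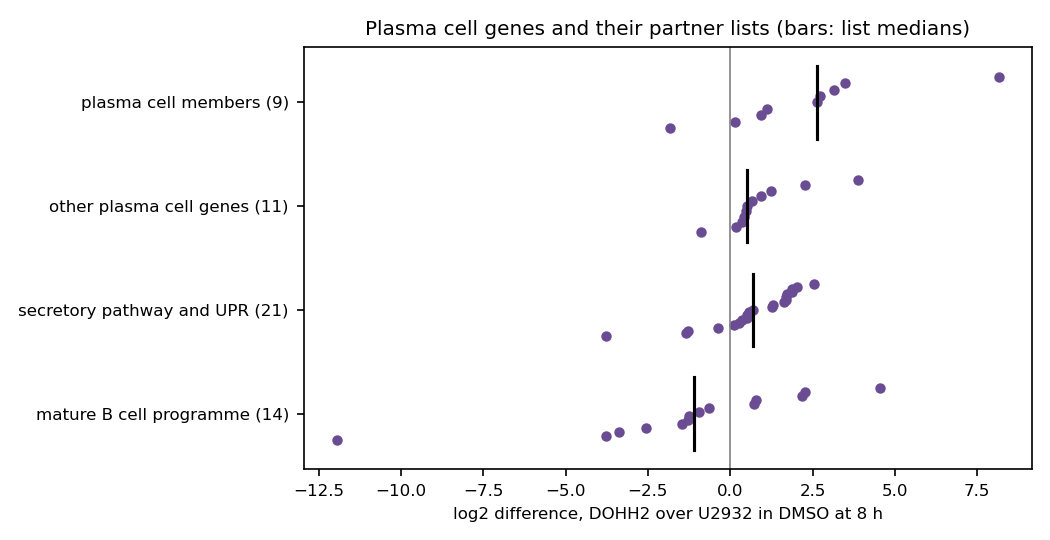
Log2 difference, DOHH2 over U2932 in DMSO at 8 h, of each tested gene of the 9 members and of the 3 lists around them; black bars are list medians. The medians are 2.62 for the members, 0.50 for other plasma cell genes, 0.69 for the secretory pathway and -1.09 for the mature B cell programme.

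With TK against DMSO, 0 genes of the 3 lists were called in either line at either time. Of all genes, 0.0% were called after 8 h in either line, 0.0728% after 18 h in DOHH2 and 0.0182% after 18 h in U2932. Over time in U2932 with TK, 2 of 21 secretory genes were called, against 0.218% of all genes, MANF (99.7 ± 13.8 CPM at 18 h, n = 3, and 49.6 ± 5.42 CPM at 8 h, n = 2; adjusted p 0.0122) and HSPA5, the chaperone BiP (1076 ± 147 CPM at 18 h and 589 ± 29.8 CPM at 8 h; adjusted p 0.0225). In the mean of TK and DMSO in U2932, 9 of the 21 were called, against 5.3% of all genes, 8 higher and 1 lower at 18 h, with SDF2L1 at 0.98, MANF at 0.96, HSPA5 at 0.79 and CRELD2 at 0.70. In DOHH2 the mean gave 4 of 21, 1 higher and 3 lower, against 5.96% of all genes. The members MZB1 and SDC1 were higher at 18 h in the same U2932 libraries. Of 11 other plasma cell genes, 1 was called over time in DOHH2 in DMSO, against 0.631% of all genes. With TK it was also 1, against 1.57%. Both calls were CD27, a receptor of memory B and plasma cells. It was lower at 18 h in DMSO (-0.70, adjusted p 0.0388) and with TK (-0.69, adjusted p 0.019). For these genes the DOHH2 mean gave 2 of 11, against 5.96% of all genes. CD27 was lower (-0.69) and CREB3L2 higher (0.50, adjusted p 0.00807). In the DOHH2 mean of TK and DMSO, 6 of 14 mature B cell genes were called, against the same 5.96%, 0 higher and 6 lower at 18 h, among them MS4A1 (-0.70), SPIB (-0.67) and IRF8 (-0.58).

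Within a line the members did not move as 1 block from library to library. Over the 36 pairs of members, the median Pearson correlation of log2 CPM was -0.08 in the 11 DOHH2 libraries (-0.01 without replicate 1 of TK at both times) and 0.27 in the 9 U2932 libraries. JCHAIN and CD38 went together in DOHH2 (r 0.90, and 0.86 without those 2 libraries), and JCHAIN and SDC1 went apart (-0.88 and -0.55). In U2932, PRDM1 and MZB1 went apart (-0.90), MZB1 and SDC1 together (0.81), and IRF4 and CD38 together (0.84). These values describe libraries that share agents and times.

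Of 10077 genes ranked by Pearson correlation over the 20 libraries, after each line's mean had been taken off, those most like each member were the following. They were B9D1 (0.90), ZSWIM7 (0.88) and GPAA1 (0.88) for MZB1, ATXN1 (0.88), MTF1 (0.87) and PHLPP2 (0.86) for PRDM1, and MESD (0.87) for XBP1. IRF4 was most like HKR1 (0.80), SDC1 most like CAPN1 (0.87), SLAMF7 most like GTF2IP20 (0.79) and CD38 most like ANKRD36BP2 (0.91). JCHAIN was most like RAP1B (0.91) and TNFRSF17 most like SEC22A (0.91), and these fell to 0.75 and 0.65 without replicate 1 of DOHH2 TK at both times.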

How the data were processed

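STAR alignment to GRCh38.p10, HTSeq counting and edgeR are named in the submitters' processing notes. Versions, annotation release and strand setting are not given in the sources used. The authors deposited raw counts per gene; summary entries of unassigned reads (32.7 to 62.7% of all counts) were left out.

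Genes reaching 0.288 CPM (10 counts in the median library) in at least 3 libraries were kept, 16478 of 34160 with any count. All 20 libraries were fitted together with edgeR 4.0.16 (R 4.3.3), 1 coefficient per group of line, agent and time, TMM scaling and the robust quasi-likelihood F test. P-values were adjusted by Benjamini-Hochberg over all genes kept (threshold 0.05). Standard errors came from the F statistic and 95% intervals from the t quantile of the fit. Levels are TMM-scaled CPM, and CPM per kb uses exons of GENCODE v29. The fit was also run on counts simulated with the same spread for every gene, and the outcome is not given here. Correlations of deviations from group means were -0.0968 to 0.636 over 7 same-numbered pairs (median -0.00309). They were -0.554 to 0.294 over 14 pairs of unlike number (median 0.0123). In groups of 2 libraries the deviations mirror each other, so whether replicate numbers pair the libraries could not be decided. No block was used in the main fit. No libraries had identical counts.

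The members and lists were chosen with earlier results of these data known. The 9 members are all named, and some genes of the lists are not reported here. Of each list, the called genes of smallest p, up to 4 for a comparison, are named, and others named (ERN1, POU2AF1, GPRC5D) were chosen after their values were seen. Alternatives were RLE scaling, other filters, DESeq2 1.42.0, limma 3.58.1 voom weights, a 1.5-fold test, smaller fits, other controls, a replicate block and leaving out single libraries. Each library was left out in turn except the single DMSO library of U2932 at 18 h.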

Additional observations from a re-analysis of the deposited data

Results flagged for a closer look

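The change between 18 h and 8 h differed between the lines for 2 members, by a test of the difference itself that was added after the values had been seen. For MZB1 the time change in DOHH2 minus that in U2932 was -1.07 on the log2 scale (SE 0.18, 95% interval -1.44 to -0.69, adjusted p 0.00339). The time change itself was -0.01 in DOHH2 and 1.05 in U2932, as means of TK and DMSO. For PRDM1 the difference was 0.78 (SE 0.20, 95% interval 0.36 to 1.20, adjusted p 0.0214), with 0.25 in DOHH2 and -0.53 in U2932. Of all genes tested, 11.9% differed in the same test. The U2932 values rest in part on a single DMSO library of 18 h.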

How the results depend on the processing

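The 8 or 9 members called between the lines kept a count within 1.5 times under every alternative run. With DMSO libraries of 8 h added as controls for TK at 18 h in U2932, the count of members called was 1 in place of 0, and MZB1 was at 0.67 in place of -0.29. Over time in U2932 in DMSO (1 member called), the count was 2 without a filter on low counts, 0 against a 1.5-fold change, 2 with DESeq2, 3 with voom weights, and 0 to 0 when each DMSO library of 8 h was left out. Over time in U2932 with TK (0 called), it was 1 without a filter, with a filter at 50 counts, in fits of 1 line or of the 2 groups only, with DESeq2 and with voom weights, and 0 to 1 with libraries left out. Whether replicate numbers pair the libraries could not be decided, and with the replicate block this count was 1, for MZB1 (0.77, adjusted p 0.0447). Voom weights gave 1 for time in DOHH2 in DMSO and 1 for the DOHH2 mean of TK and DMSO, both IRF4. For the U2932 mean (2 called), the count was 4 without a filter and 1 to 3 with libraries left out. For DOHH2 minus U2932 over time (2 called), it was 5 with voom weights, 1 to 3 with libraries left out, and 4 without replicate 1 of DOHH2 TK at both times. Of all genes, DESeq2 called 148 over time in U2932 in DMSO and 885 with TK, against 6 and 36 with edgeR. Counts over all genes under the other settings are not given here, so whether the members followed them was not tested. The cause of the changes in the members' counts was not tested either. With the 1.5-fold test, the XBP1 difference between the lines was not called with TK at either time. Among single members, 2553 values kept their side of the threshold and either their direction or, where uncalled, changed sign by less than their standard error; 32 gained a call, 16 lost one, 26 uncalled values changed sign by more than that, and 1 (MZB1, above) turned and was called. The 1 DMSO library of U2932 at 18 h limits every comparison that uses it, and SDC1 and PRDM1 in U2932 rest on 53 to 296 counts.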
